A study of Caenorhabditis elegans with 2 samples.

Results

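The regions described here are 295 stretches of the X chromosome of Caenorhabditis elegans. They lie near the starts of protein-coding genes and were listed from NHR-76 ChIP. They were selected on the pooled signal of both libraries: the 5000 strongest of 30000 listed regions were taken, 234 that overlap a gene for a tRNA, snoRNA or snRNA were dropped, and X-linked regions were kept where the 5' end of a protein-coding gene lay no more than 1 kb from the summit. Of the 960 X-linked regions among the 5000, 65 were dropped at such RNA genes (14 of them near a 5' end) and 600 lay farther from any protein-coding 5' end. The pooled list holds background as well as peaks, so being listed is not in itself a call of binding. Binding was assayed by chromatin immunoprecipitation and sequencing in whole L1 larvae of mixed sex, from strain OP203, which carries the unc-119(ed3) allele on chromosome III and the transgene wgIs203. The transgene encodes NHR-76 fused at the C-terminus to GFP and FLAG. The labels name no promoter for it and give the antibody only as nhr-76. The 2 libraries are labelled as biological replicates of this 1 group, and neither a second group nor an untagged control was analysed here. Signal values are the peak caller's own and sequencing depth is unknown. Library values below are multiples of the median listed region of the same library, given as mean ± SD where both libraries are combined (n = 2 libraries).

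NHR-76 is a nuclear hormone receptor, one of a family of zinc-finger transcription factors that is much enlarged in nematodes. In adult worms it is known for a role in the intestine in fat loss driven by serotonin. The worm X chromosome is paired in hermaphrodites and single in males, a dosage compensation complex equalises its expression, and it is poor in genes used in the germline. Many worm transcripts receive a spliced leader in place of their own first bases, so an annotated 5' end often marks the trans-splice site, with the site of transcription initiation lying some distance upstream.

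Of the 295 regions, 17 were in the authors' thresholded peak list. Windows reaching 75 bp to either side of the summit were free of annotated exons in 9 of the 17, and 6 of these are shown on the ce11 build, since they include the strongest region and the lowest GC of the 17 and hold 3 of the motifs counted below. Capitals mark matches on either strand to the 9 motifs searched, which are spelled out with their results further on.
serp-1.1, chrX:15841198-15841348, plus strand: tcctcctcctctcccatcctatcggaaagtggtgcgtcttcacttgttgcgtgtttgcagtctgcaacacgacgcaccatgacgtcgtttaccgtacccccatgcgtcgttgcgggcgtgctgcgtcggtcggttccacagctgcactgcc
nspc-17, chrX:14525879-14526029, plus strand: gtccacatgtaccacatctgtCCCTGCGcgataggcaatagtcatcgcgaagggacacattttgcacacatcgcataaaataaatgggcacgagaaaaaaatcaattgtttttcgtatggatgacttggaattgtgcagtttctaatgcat
ain-1, chrX:16612514-16612664, plus strand: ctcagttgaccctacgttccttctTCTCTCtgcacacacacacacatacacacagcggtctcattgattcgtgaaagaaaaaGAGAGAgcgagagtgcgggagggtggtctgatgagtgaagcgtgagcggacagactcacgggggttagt
rpl-11.2, chrX:2242911-2243061, plus strand: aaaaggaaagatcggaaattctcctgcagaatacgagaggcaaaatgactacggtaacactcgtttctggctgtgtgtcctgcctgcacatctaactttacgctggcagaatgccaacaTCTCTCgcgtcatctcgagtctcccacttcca
sms-2, chrX:949596-949746, plus strand: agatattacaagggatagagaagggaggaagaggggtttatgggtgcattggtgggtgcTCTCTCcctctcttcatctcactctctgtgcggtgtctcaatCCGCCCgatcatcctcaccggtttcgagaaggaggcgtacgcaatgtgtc
sec-3, chrX:3099857-3100007, plus strand: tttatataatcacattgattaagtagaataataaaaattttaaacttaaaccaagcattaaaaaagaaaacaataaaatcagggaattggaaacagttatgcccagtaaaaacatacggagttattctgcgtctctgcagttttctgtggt
The serp-1.1 window had 59.6% GC and none of the motifs. The ain-1, rpl-11.2 and sms-2 windows held GAGAGA or its reverse complement, and the sms-2 window also held the GC box. The nspc-17 window held the motif core of the dosage compensation sites. The sec-3 window, at 28.5% GC, held none. Of the exon-free windows not shown, that at ins-39 held CGCAGGG and GATAA. The window at R04E5.9 held CACGTG and GATAA, and that at C14A11.9 held none of the motifs.

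The 17 thresholded regions lay within 1 kb of 19 protein-coding genes, given here by the roles of those genes. The rule chose them on pooled signal, so their height is a description and not a result. Thresholded regions made up 5.76% of the 295, beside 4.96% of the 5000 strongest regions and 0.827% of the whole pooled list. Their pooled signals ran from 31.4 to 79.4 in the caller's units, against a median of 16.99 over all 295.

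The strongest was at serp-1.1 (chrX:15841111-15841434, rank 12), whose product RefSeq names as a stress-associated endoplasmic reticulum protein. Its summit lay 299 bp upstream, with 7.52 times the median region in replicate 1 and 4.50 in replicate 2 (6.01 ± 2.14). The hsp-3 region (chrX:6092009-6092332), 47 bp upstream of a gene for the endoplasmic reticulum chaperone BiP, had 2.17 times in replicate 1 and 6.43 in replicate 2, which was the taller by far (4.30 ± 3.01). The pdi-6 region (chrX:7068400-7068723) was centred 1 bp downstream of the 5' end of a protein disulfide isomerase gene and had 3.0 times in replicate 1 and 5.14 in replicate 2. All of these stood above the median listed region in both libraries, but the library in which each was taller differed.

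Genes of endocytosis and exocytosis come next. At dpy-23, the mu subunit of the AP-2 clathrin adaptor, the summit was 289 bp upstream (4.31 times in replicate 1 and 1.53 in replicate 2). At epn-1, which encodes the endocytic adaptor epsin, it was 558 bp upstream (5.29 times in replicate 1 and 1.57 in replicate 2). These were regions of replicate 1 mainly: their deposited q-values in replicate 2 were 0.123 and 0.105. At sec-3, a subunit of the exocyst that tethers secretory vesicles, the summit was 80 bp upstream and the libraries were closer (2.18 times in replicate 1 and 3.09 in replicate 2). The sms-2 region, 788 bp upstream of a sphingomyelin synthase gene, had 2.73 times in replicate 1 and 3.60 in replicate 2.

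Regulators of messenger RNA were represented by puf-9, a Pumilio-family RNA-binding protein, and ain-1, a GW182-type partner of microRNA Argonautes. The puf-9 region (chrX:5841149-5841472, 281 bp upstream) had 5.05 times in replicate 1 and 4.56 in replicate 2, the smallest SD of the 17 (4.81 ± 0.348). The ain-1 region (chrX:16612427-16612750, 862 bp upstream) had 3.65 times in replicate 1 and 5.78 in replicate 2. The rpl-11.2 region, 368 bp upstream of a large-subunit ribosomal protein gene, had 4.79 times in replicate 1 and 2.73 in replicate 2. The region 661 bp upstream of ftt-2, a 14-3-3 protein, had 2.84 times in replicate 1 and 5.86 in replicate 2.

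Among the remaining thresholded regions, that of the nematode-specific peptide gene nspc-17 (773 bp upstream) was the tallest of the 17 in replicate 1, at 7.68 times, and had 3.19 in replicate 2. The region 625 bp upstream of ins-39, an insulin-like peptide gene, had 5.37 times in replicate 1 but 1.36 in replicate 2, where its q-value was 0.202 and its rank 5818. A region 207 bp upstream of T13C5.6, and 669 bp downstream of the 5' end of C14F11.7, had 3.07 times in replicate 1 and 4.55 in replicate 2. The region 222 bp upstream of C14A11.9 had 4.84 times in replicate 1 and 1.38 in replicate 2. F47G3.4, whose summit lay 809 bp downstream of the 5' end, had 1.52 times in replicate 1 and 3.54 in replicate 2. The single divergent case, between R04E5.9 (117 bp) and the metal transporter gene cnnm-2 (846 bp), had 1.71 times in replicate 1 and 3.07 in replicate 2. Of the 17, 8 were higher in replicate 1 and 9 in replicate 2, and 8 differed more than 2-fold between libraries. The q-value was at or below 0.05 in both libraries for 11 of the 17. It was so in replicate 1 only for 4 (ins-39, epn-1, dpy-23 and C14A11.9) and in replicate 2 only for 2 (F47G3.4 and R04E5.9).

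**Figure D1:**
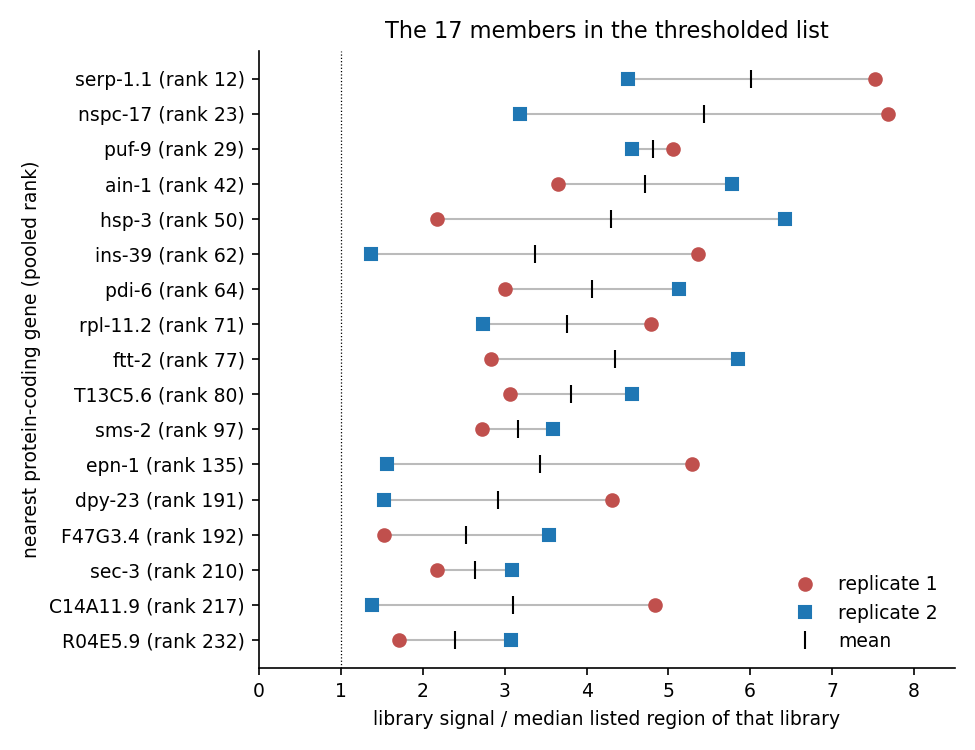
Signal of the 17 thresholded X regions near 5' ends in each library, as multiples of that library's median listed region (dotted line at 1), with the mean as a tick; rows are named by the nearest gene. Every value lies above 1, and the libraries differ most at ins-39, where replicate 1 had 5.37 and replicate 2 had 1.36, when compared by their ratio.

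Outside the thresholded list, the 10 regions with the highest lower library value were at 9 genes. A second ain-1 region (662 bp upstream, rank 302) had 3.65 times in replicate 1 and 3.20 in replicate 2, but its replicate 1 value is the same library region that matched the first ain-1 region. At syd-2, the liprin-alpha gene needed for presynaptic assembly, the summit was 415 bp upstream (2.56 times in replicate 1 and 3.52 in replicate 2). At cebp-1, a bZIP factor of the C/EBP family, it was 765 bp upstream (1.98 in replicate 1 and 2.93 in replicate 2), and at F57G12.1 it was 539 bp upstream (2.07 in replicate 1 and 2.95 in replicate 2). A pair of overlapping regions upstream of tatn-1, the tyrosine aminotransferase gene, matched the same region in each library (1.89 in replicate 1 and 2.40 in replicate 2), so they are 1 observation.

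The other regions of this kind were at the translation elongation factor gene eef-1A.2 (1.89 times in replicate 1 and 2.08 in replicate 2), at F13D11.4 (1.83 in replicate 1 and 1.95 in replicate 2) and in an intron 98 bp downstream of the 5' end of pmpl-1 (2.57 in replicate 1 and 2.05 in replicate 2). A second hsp-3 region, in a coding exon 965 bp downstream of the 5' end, had 1.97 times in replicate 1 and 2.13 in replicate 2. Its libraries lay closer together (2.05 ± 0.114) than those of the first hsp-3 region.

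The libraries ranked most of the 295 regions differently. A library region overlapped a member by at least 1 bp in both libraries for 199 (67.5%, 95% Wilson interval 61.9 to 72.6), in replicate 1 alone for 44 and in replicate 2 alone for 52. The share listed in both was 66.5% for the 600 X regions farther from 5' ends and 70.6% for the 1760 autosomal regions near 5' ends. The 199 had a median of 1.44 times the median region over the 2 libraries (interquartile range 1.22 to 1.84), and 44 of them differed more than 2-fold between libraries. These medians were 1.33 and 1.41 times in the X regions farther away and in the autosomal regions near 5' ends. Across the 199, Spearman's rank correlation between the library multiples was 0.0572, and Pearson's on log2 values was 0.232. The rank correlation was 0.00818 in the X regions farther away and 0.0583 in the autosomal regions near 5' ends. All these sets were chosen on pooled signal, so the correlations describe the chosen regions only.

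A q-value at or below 0.05 in both libraries was found for 16 of the 295 (5.42%, 3.37 to 8.63), beside 5.52% of the 5000 strongest regions. In replicate 1 it was found for 43 of the 295 (14.6%), beside 15% of the autosomal regions near 5' ends and 11.3% of the X regions farther away. In replicate 2 it was found for 89 (30.2%), beside 27.8% and 25.7% of those sets. The whole lists of replicates 1 and 2, which are not limited to strong regions, had 2.65% and 6.68%. In the pooled list, 54 of the 295 passed, beside 2.32% of the whole list, again not limited to strong regions. Since the same reads chose the members, these counts describe them and test nothing. Neither library gave such a value for 179 members (60.7%), beside 63.75% of the autosomal regions near 5' ends and 67.8% of the X regions farther away. Applied to each library's own list, the same rule chose 308 regions in replicate 1, which overlapped 137 of the 295, and 293 in replicate 2, which overlapped 144. By both lists 53 of the 295 were chosen, 15 of the 17 thresholded ones among them, and by neither 67.

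**Figure D2:**
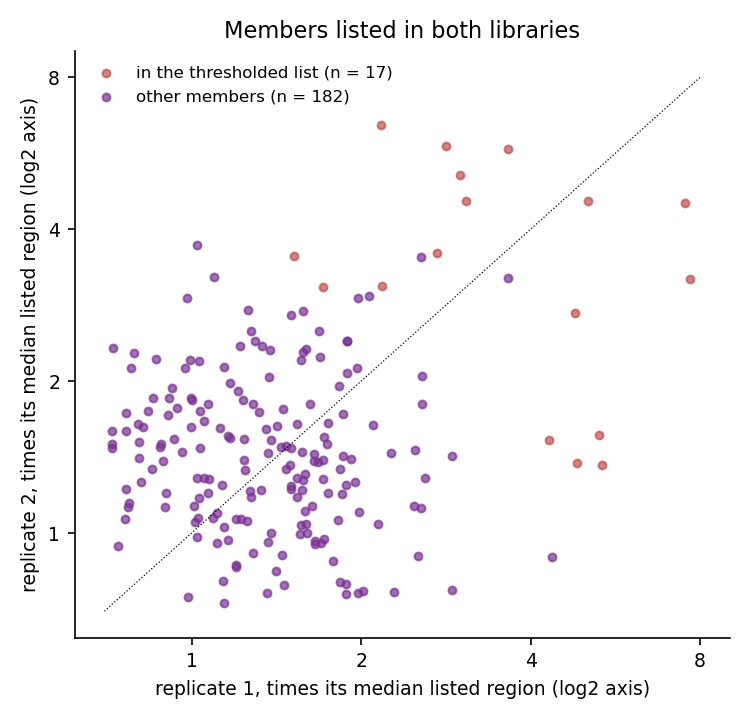
Library multiples of the 199 X regions near 5' ends listed in both libraries, replicate 1 against replicate 2 on log2 axes, with the 17 thresholded regions in red and the dotted line marking equal values. The thresholded regions spread to either side of the line, 8 of them more than 2-fold apart between libraries.

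Summits lay upstream of the nearest 5' end in 179 of the 295 regions (60.7%, 55 to 66.1), a side that the rule did not fix. The share was 55.2% (52.8 to 57.5) for autosomal regions near 5' ends, 49.4% (46.8 to 52) for the 1437 X regions near 5' ends that ranked beyond 5000, and 43.6% for autosomal ones beyond that rank. Between 100 and 300 bp upstream lay 63 summits (21.4%), and between 100 and 300 bp downstream 25 (8.47%). On the autosomes these positions held 19.4% and 11.4%. The median distance was 359 bp (interquartile range 175 to 671), against 317 bp (141 to 593.5) for the autosomal regions.

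The upstream share was highest among the strongest regions: 15 of 17 in ranks 1 to 248, 41 of 53 in ranks 249 to 1000, 51 of 101 in ranks 1001 to 2500 and 72 of 124 in ranks 2501 to 5000. The autosomal regions of the same ranks had 86.9%, 64.1%, 51.8% and 50.2%. In the band from 249 to 1000, the X-linked share of 77.4% had an interval of 64.5 to 86.5 and the autosomal one of 58.4 to 69.4, which overlap. Chosen by replicate 1 alone the X share was 57.8%, and by replicate 2 alone 57.0%.

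**Figure D3:**
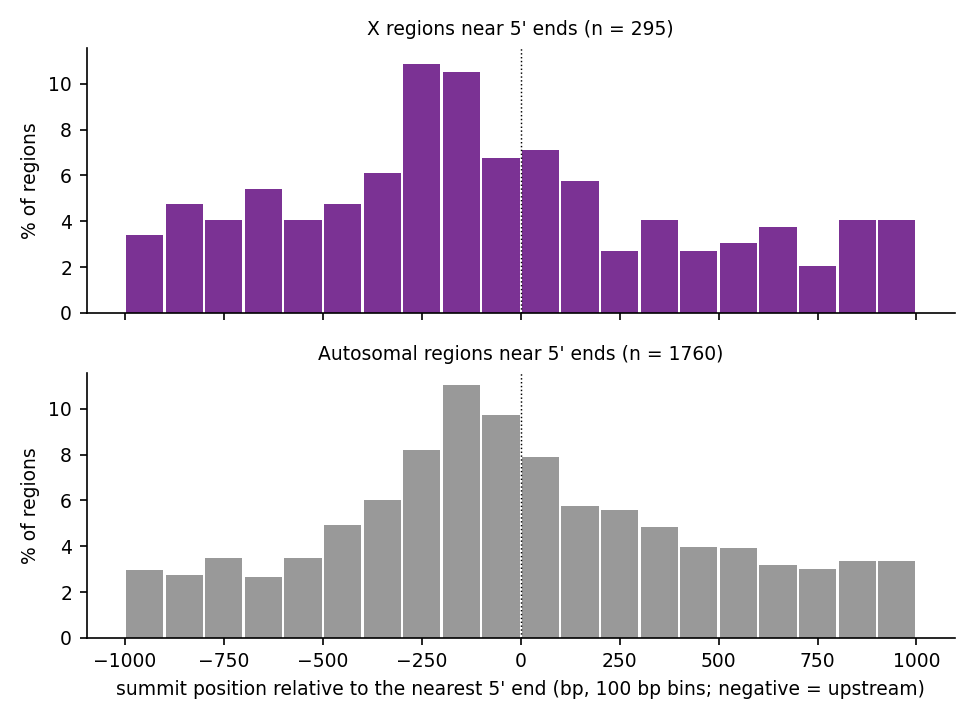
Summit positions relative to the nearest protein-coding 5' end in 100 bp bins, as a percent of the 295 X regions (top) and of 1760 autosomal regions near 5' ends (bottom), with upstream to the left. The tallest bin lies 200 to 300 bp upstream for the X regions (10.8%) and 100 to 200 bp upstream for the autosomal regions (11.0%).

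Few of the X regions lay at divergent 5' ends. A 5' end on each strand, pointing away from each other and both within 1 kb of the summit, was found at 15 (5.08%, 3.11 to 8.22). It was found at 348 of the 1760 autosomal regions (19.8%, 18 to 21.7), and these intervals do not overlap. The summit need not lie between the paired ends. At pigx-1, sec-15, F59F5.4, F08G12.3 and gst-42 it lay in a coding exon, downstream of that gene's 5' end. Chosen by replicate 1 alone, the shares were 3.25% (1.77 to 5.87) of X regions and 18.4% (16.6 to 20.3) of autosomal regions near 5' ends. The gene layout of the chromosomes differs in the same way: 5.90% of the 2731 X-linked protein-coding 5' ends have a divergent 5' end within 1 kb upstream, against 19.6% of the 17242 autosomal ones. The part of this layout in the difference was not tested. Among regions near 5' ends ranked beyond 5000, the shares were 4.04% on X and 11.1% on the autosomes.

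The divergent X-linked cases included the pair trap-2 and ile-2, which encode a subunit of the translocon-associated complex and a lectin of the early secretory pathway. That region (rank 1230) was listed in replicate 2 only, at 3.38 times. The pair pigx-1 and rme-6, of which rme-6 encodes a Rab5 exchange factor of endocytosis, was likewise listed in replicate 2 only, at 3.05 times. The region between idh-2, an isocitrate dehydrogenase gene, and C34F6.7 had 1.03 times in replicate 1 and 1.07 in replicate 2. The region at cdk-4, a cyclin-dependent kinase gene of the G1 phase, had 1.11 times in replicate 1 and 0.955 in replicate 2, so it stood at the level of the median listed region.

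Intergenic sequence held 144 of the summits (48.8%, 43.2 to 54.5), coding exons 62 (21%), introns of protein-coding genes 39 (13.2%), exons of non-coding genes 26 (8.81%, 6.09 to 12.6), 5' UTRs 19 (6.44%) and 3' UTRs 5 (1.69%). Exons of non-coding genes held 3.07% (2.36 to 3.98) of the autosomal summits near 5' ends, 6.17% (4.51 to 8.38) of the X summits farther from 5' ends and 1.88% of the X summits near 5' ends ranked beyond 5000. Of the 26, 4 were thresholded, at puf-9, T13C5.6, epn-1 and dpy-23. In all, 47 regions overlapped a gene of the ncRNA class, 3 a lincRNA gene and 2 a miRNA gene, mir-360 near capa-1 and mir-271 near unc-78. The lincRNA regions include 2 overlapping ones near osm-11, both at linc-48. No such counts are given for the other sets, so these overlaps are not compared with a background share. Of the 17 thresholded summits, 12 were intergenic, 4 in exons of non-coding genes, 1 in a 5' UTR and 0 in coding exons.

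GC content and short motifs varied with signal. The same windows averaged 41.8% ± 7.96 GC over the 295 (SD across regions), 39.95% ± 7.08 in X regions farther from 5' ends, 40.3% ± 7.27 in autosomal regions near 5' ends and 37.2% ± 7.41 in X regions near 5' ends beyond rank 5000. From the strongest band to the weakest the means of the 295 were 48.9%, 44.9%, 41.5% and 39.7%, and those of the autosomal regions 46.95%, 42.97%, 39.9% and 38.9%. Neighbouring bands of the 295 differed by less than the SD across regions within them, which was 7.30 to 8.61. That SD is the scatter of single windows and does not measure the error of a band mean.

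The alternating sequence GAGAGA was within 75 bp of 60 summits (20.3%, 16.1 to 25.3). It was at 10.7% (8.44 to 13.4) of the X regions farther from 5' ends, 15.5% (13.9 to 17.3) of the autosomal regions near 5' ends and 10.6% of the whole pooled list. Its share rises with GC, which differs between these sets. In windows from 40% to under 50% GC it was at 34 of 130 members (26.2%, 19.4 to 34.3), 10.8% (7.50 to 15.4) of the X regions farther away and 18.8% (16.1 to 22) of the autosomal regions. Below 40% GC the shares were 9.09%, 8.39% and 10.1%. At 50% GC and above they were 34.1% (21.9 to 48.9), 24% (14.3 to 37.4) and 29.02% (23.1 to 35.8), with overlapping intervals. The set chosen by replicate 1 alone had the hexamer at 14.3% (10.8 to 18.6), against 11.4% (9.12 to 14.1) of X regions farther away and 13.8% (12.2 to 15.5) of autosomal regions near 5' ends in the same list, and these intervals overlap. In the list of replicate 2 the shares were 20.1% (15.9 to 25.1), 11.5% (9.25 to 14.3) and 14.8% (13.2 to 16.6), so that only the X regions farther away had an interval apart from that of the regions near 5' ends.

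Apart from CGCAGGG, the other motifs, sought on both strands, were below or near their share of the whole list. CGCAGGG was above it, though at only 4 members. GATAA, the core of sites of GATA factors such as the intestinal ELT-2, was at 80 summits (27.1%, against 30.4% of the list). The longer TGATAA, which contains it, was at 43 (14.6% against 13.7%). By rank, TGATAA was at 0 of 17 members (0 to 18.4) in ranks 1 to 248 and 0 of 53 (0 to 6.76) in ranks 249 to 1000. It was at 14 of 101 (13.9%, 8.44 to 21.9) in ranks 1001 to 2500 and 29 of 124 (23.4%, 16.8 to 31.6) in ranks 2501 to 5000. The autosomal regions near 5' ends had it at 9.35% (5.16 to 16.4), 10.1% (7.13 to 14.1), 14.1% and 15.6% (13.3 to 18.2) in the same bands. The first bands of both sets were joined after their values were seen. Together they gave 0 of 70 members and 39 of 394 autosomal regions (9.90%, 7.33 to 13.2). For the members a limit of 3 counts, which is not a Wilson interval, allows a share of up to 4.29%. The members' share was the lower among the strongest regions, though the intervals overlap in ranks 1 to 248. It was the higher among the weakest, where the intervals also overlap. No TGATAA shares are given for regions chosen by each library's own list. In ranks 1 to 1000, mean GC was 45.9% in the members and 44.1% in the autosomal regions. Over all ranks, the share with TGATAA fell as GC rose. Below 40% GC, from 40% to under 50% and at 50% and above, TGATAA was at 22.3%, 10.8% and 4.55% of the members. The autosomal regions near 5' ends had it at 18.9%, 10.2% and 3.11%, and the whole list at 16.7%, 9.39% and 4.45%. The part of GC in the differences by rank and between the sets was not tested. The nuclear receptor half-sites AGGTCA and AGTTCA were at 12 (4.07% against 4.28%) and 20 (6.78% against 9.96%). The GC box GGGCGG was at 11 (3.73% against 3.13%) and the E-box CACGTG at 12 (4.07% against 3.35%). TTTCAG, the worm splice acceptor, was at 41 (13.9%, 10.4 to 18.3), against 21.2% of the X regions farther away, 22.7% of the autosomal regions near 5' ends and 25.6% of the list. CGCAGGG, a core of the motif at recruitment sites of the dosage compensation complex on X, was at 4 (1.36%, 0.529 to 3.43), against 12 of the 600 X regions farther from 5' ends (2.00%), 0.568% of the autosomal regions near 5' ends and 0.343% of the list. A match of these letters is a description, not a binding site.

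**Figure D4:**
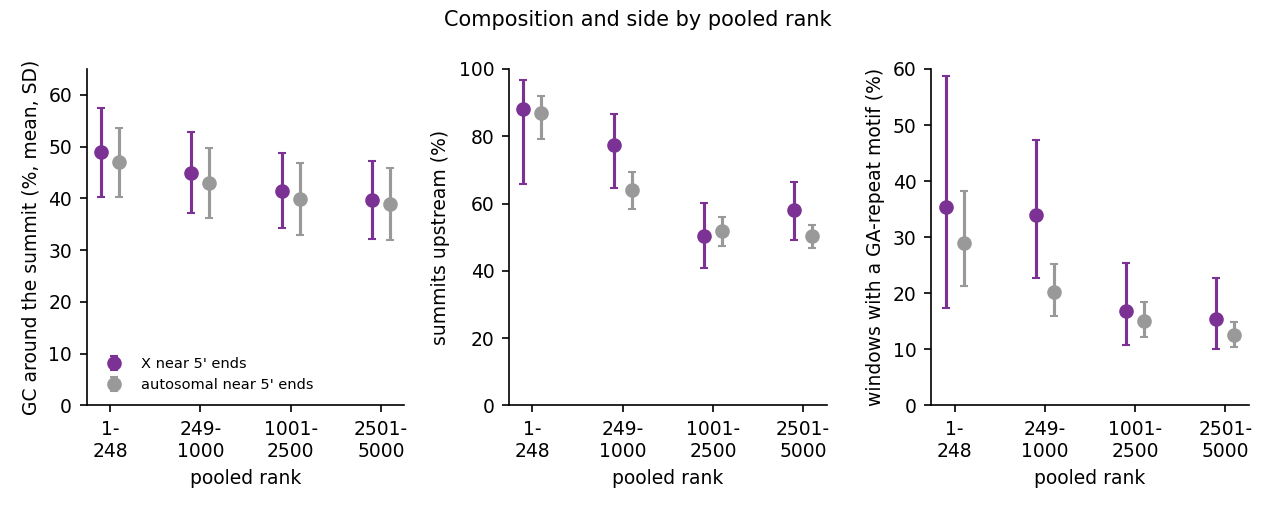
GC content (mean and SD across regions), share of summits upstream of the nearest 5' end and share of windows with the GA-repeat hexamer (95% Wilson intervals), by band of pooled rank, for the X regions near 5' ends (purple) and autosomal regions near 5' ends (grey). Each measure is higher in the strongest band than in the weakest for both sets, with mean GC of the X regions at 48.9% and 39.7%.

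The 295 regions lay within 1 kb of 302 protein-coding genes, 11.1% of the 2731 on X. Nuclear hormone receptor genes had 8 of their 27 X-linked members near such a region, and 15 (55.6%) near any listed region, beside 1425 of all 2731 X-linked genes (52.2%). The strongest were nhr-48 (rank 351, 790 bp upstream, 1.28 times in replicate 1 and 2.52 in replicate 2), nhr-32 (1.58 in replicate 1 and 2.29 in replicate 2), nhr-1 (1.10 in replicate 1 and 3.22 in replicate 2) and nhr-14 (1.57 in replicate 1 and 2.20 in replicate 2). Each of these 4 was higher in replicate 2. None was in the thresholded list, and nhr-76 itself is on chromosome IV.

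Other transcription factor genes had 9 of 41, led by cebp-1, the zinc-finger gene zfp-3 (1.58 times in replicate 1 and 2.75 in replicate 2), the SMAD gene daf-3 (0.866 in replicate 1 and 2.21 in replicate 2) and the heterochronic regulator lin-14 (1.5 in replicate 1 and 1.47 in replicate 2). The homeobox list had 3 of 25, of which ceh-37 was listed in both libraries (1.71 times in replicate 1 and 1.40 in replicate 2), ceh-14 in replicate 1 only and ceh-89 in replicate 2 only. Near any listed region lay 25 of the 41 other transcription factor genes (61.0%) and 14 of the 25 homeobox genes (56%), beside 52.2% of all X-linked genes.

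Muscle structure genes had 5 of 20, led by unc-96 (2.53 times in replicate 1 and 0.899 in replicate 2), while myo-2, mlc-1 and unc-78 were each listed in 1 library. Guidance and adhesion genes had 7 of 41, with syd-2, sym-4 (1.68 in replicate 1 and 2.51 in replicate 2), the planar polarity gene vang-1 (1.75 in replicate 1 and 1.65 in replicate 2) and madd-3 (replicate 2 only, 2.69 times). The list of intestine genes, drawn up by symbol and not by measured expression, had 6 of 41. These were vha-12, vha-15, spp-14, clec-86, spp-5 and nuc-1. None carries the vit, elt or ges symbols for which the list was planned. The strongest was vha-12, a subunit of the vacuolar proton pump, with 4.37 times in replicate 1 and 0.897 in replicate 2, so that it rested on replicate 1. Next came vha-15 (1.71 in replicate 1 and 1.28 in replicate 2), then the saposin-like gene spp-14 (0.929 in replicate 1 and 1.54 in replicate 2). Near any listed region lay 12 of the muscle structure genes (60%), 28 of the guidance and adhesion genes (68.3%) and 24 of the intestine list (58.5%). The share of all X-linked genes was 52.2%.

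Gene families of neuronal signalling come next. Ion channels and gap junction genes had 2 of 69, unc-2 (a calcium channel, 1.37 times in replicate 1 and 1.44 in replicate 2) and acr-12 (an acetylcholine receptor subunit, 1.36 in replicate 1 and 0.761 in replicate 2), and 35 of the 69 (50.7%) lay near some listed region, beside 52.2% of all X-linked genes. The list of G protein-coupled receptor and G protein genes, which also takes in rgs genes for regulators of G protein signalling, had 3 of 95. These were srg-64, rgs-10 and rgs-2, all listed in replicate 2 only, and 53 of the 95 (55.8%) lay near some listed region. Neuropeptide genes had 3 of 38: ins-39, capa-1 (2.90 times in replicate 1 and 0.772 in replicate 2) and nlp-45 (replicate 1 only). Collagens had 2 of 31, col-176 and col-167. The serotonin fat-loss list had 0 of 12, with 6 near some listed region, close to the share of all X-linked genes.

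Of the 9 X-linked genes of dosage compensation and sex determination, 2 had such a region: sdc-2, which starts assembly of the dosage compensation complex in hermaphrodites (412 bp upstream, 1.72 times in replicate 1 and 1.55 in replicate 2), and xol-1, the early switch of sex determination (464 bp downstream of the 5' end, replicate 1 only, 0.882 times). The short X-linked lists of ribosomal protein, chaperone and histone genes had rpl-11.2 of 2, hsp-3 and hsp-25 of 5, and his-24 of 5. These counts are read beside the 11.1% of all X-linked genes and carry no test.

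**Figure D5:**
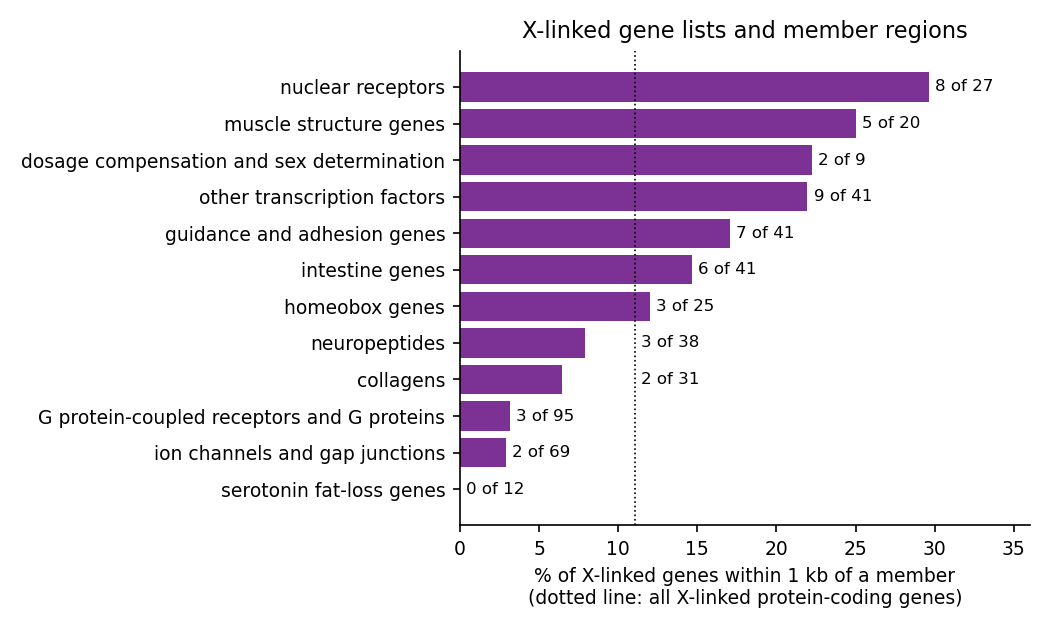
Percent of the X-linked protein-coding genes of each list with 1 of the 295 regions within 1 kb, with counts beside the bars and the dotted line at 11.1% for all X-linked genes; 3 lists of fewer than 9 genes are left out. The bars run from 0 of 12 serotonin fat-loss genes to 8 of 27 nuclear receptor genes.

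Several genes had more than 1 region. Of the 302 genes, 19 lay within 1 kb of at least 2 regions and 2 of 3 regions, namely ftt-2 (ranks 77, 477 and 713) and syd-2 (ranks 382, 1908 and 4399). With overlapping regions merged, 291 of the 295 were left. The regions that overlap each other were at ain-1, tatn-1, osm-11 and syd-2 (ranks 382 and 1908), so the counts for these genes include overlapping rows. Most regions, 270, had 1 protein-coding gene within 1 kb, 23 had 2 and 2 had more. A further copy elsewhere in the genome, over 50 bp or more at 95% identity or above, was found for 1 region (0.339%, 0.0599 to 1.89), against 1.67% of the X regions farther from 5' ends and 3.47% (2.71 to 4.43) of the autosomal regions near 5' ends. None of the 17 thresholded regions had such a copy.

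The regions were spread along X. With the chromosome cut into 3 equal lengths, the central stretch held 115 (39%, 33.6 to 44.7), the left 96 and the right 84, against 35.7% of X-linked protein-coding 5' ends and 33.8% of the X regions farther from 5' ends in the central stretch. The median gap between neighbouring summits was 34.7 kb, the largest was 593 kb, and 67 of 294 gaps were under 10 kb.

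The weakest members, at bet-2 and H01M10.1 (ranks 4980 and 4990), each had a pooled signal of 13.99. The regions just below the limit, at C52G5.2 and pfn-3 (ranks 5004 and 5038), had 13.98 and 13.96, so the limit of 5000 does not fall at a gap in signal. By distance, the members at hsp-25, C36B7.5 and ipp-5 lay 988, 990 and 995 bp from the 5' end, while regions at inx-2 and hil-3 were left out at 1001 and 1007 bp. A region at rank 26 was also left out, 1007 bp from the 5' end of fbxb-58, with a pooled signal of 66.3.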

How the data were processed

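NHR-76 ChIP-seq was done in 2 libraries of 1 group. Per the labels and the file listings, the authors derived each library's list, and a list from the pooled reads, from alignments and a control file, and a thresholded list by the irreproducible discovery rate. Caller, aligner and depth are not given in the sources used here. The deposited signal is the caller's own value, so precision cannot be set from counts. The deposited −log10 of the q-value was identified from the standard order of peak-list columns. Replicates may share culture or other steps, so their spread may be partly technical.

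Coordinates are ce11 (WBcel235, lengths matched by name), 1-based. Genes came from Ensembl release 115, product names and sequence from RefSeq WBcel235. The member rule, overlaps (1 bp, largest overlap), summit places (coding exon first), motifs and GC were computed in Python 3.11.15 with pandas 2.3.3 and scipy 1.17.1, and second matches with blastn 2.17.0. On simulated data, the member rule, interval overlaps, the distance on the minus strand and the reverse complement were tested. Summit places, GC, the motif search, the choice of the largest overlap and the divergent call were not tested in this way. Shares carry 95% Wilson intervals, which cover counting error only. No test was run: members were chosen on signal and are not replicates.

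Members, gene lists (by symbol) and motifs were chosen with earlier results of these data known. Named genes are those within 1 kb of thresholded members, of the 10 others with the highest lower library value, of up to 4 strongest per list, and at the limits of rank and distance; others, among them the divergent pairs and genes with several regions, were named after their values were seen. The distance limits were added to that rule after the data were seen.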

Additional observations from a re-analysis of the deposited data

How the results depend on the processing

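Of 136 recomputed values, 114 stayed within the interval or spread of the reported value or, for the number of regions, within 1.5 times of it, and 22 did not. The number of regions was 171 among the 2500 strongest, 607 among the 10000 strongest, 181 within 500 bp and 505 within 2 kb. With the 2500 and the 10000 strongest, the thresholded share was 9.94% and 2.80%, the share listed in both libraries 75.4% and 52.6%, and the share with q at or below 0.05 in both 9.36% and 2.64%; with 2500, GATAA was at 21.1%. Within 2 kb, 54.3% of summits were upstream, the median distance was 815 bp and GAGAGA was at 15.6%. With the 5' ends of transcripts, intergenic summits made up 40.1%. Chosen by 1 library alone (without the other), 41.9% to 42.7% were listed in both, and GAGAGA was at 14.3% to 20.1%. At an overlap of 50% of the region 56.6% were listed in both, at q of 0.01 in both 2.71% passed, and over whole regions GAGAGA was at 34.6% and GATAA at 51.5%. On ce10, 292 of the 295 had a counterpart. Leaving out the region with a second genomic match was chosen after seeing the data and moved no value beyond its interval. No paired analysis was possible because there is 1 group. The unknown depth limits all library values.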
